A study of Saccharomyces cerevisiae with 18 samples.

Results

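A set of 10 budding yeast genes that encode heat shock proteins and molecular chaperones was followed through depletion of a splicing factor. They were taken by name: the small heat shock proteins HSP26 and HSP42, the membrane-associated stress protein HSP12, the disaggregases HSP104 and HSP78, the Hsp90 gene HSP82, the cytosolic Hsp70 genes SSA1, SSA2 and SSA4, and the Hsp70 gene of the endoplasmic reticulum, KAR2. All 10 had values in both strains, among 6596 gene rows with values in each gene table. None of the 10 is listed with an intron in those tables (0 of 10).

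The libraries came from 2 Saccharomyces cerevisiae strains of the BY4742 background in which the GAL1 promoter drives a spliceosome gene, DIB1 (YPR082C) in the Dib1 strain and SNU114 (YKL173W) in the Snu114 strain. This promoter works with galactose as the sugar and is silent with glucose. Both strains carry his3Δ1, leu2Δ0, met15Δ0 and ura3Δ0. The Dib1 strain is LYS2 and the Snu114 strain lys2Δ0, and both are labelled as mating type alpha. Each strain gave 3 libraries after 6 h in YPGal (galactose medium), 3 after 4 h in YPD (glucose medium) and 3 after 8 h in YPD, 18 in all. A change between galactose and glucose joins depletion, the change of sugar and the end of overexpression, which cannot be told apart here. Both the 4 h and the 8 h cultures had glucose, and further depletion cannot be told apart from longer culture. The labels do not say that the 3 replicates were separate cultures, and the tables call their means technical repeat averages, so p-values measure the spread between these libraries, which may be technical.

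Chaperones bind unfolded or misfolded proteins. Small heat shock proteins hold aggregating proteins, Hsp70 with its Hsp40 partners binds and refolds them, Hsp104 pulls chains out of aggregates, and Hsp90 completes the folding of selected clients. In yeast most of these genes are transcribed through the heat shock factor Hsf1, through the stress factors Msn2 and Msn4, or through both, and KAR2 also answers to Hac1 in the unfolded protein response. Hsf1 binds repeated GAA units in alternating orientation, named the heat shock element (HSE). Msn2 and Msn4 bind the stress response element (STRE), and Hac1 the unfolded protein response element (UPRE).

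Sequencing depth was 17.1 to 58.6 M gene reads per library. DIB1 in its own strain lay between 117804 and 127214 normalised read counts with galactose and between 244 and 283 with glucose, and SNU114 in its own between 159504 and 186566 and between 1130 and 1501. Both follow their labels. The mating type of one strain does not: the 9 Dib1 libraries, labelled alpha, held 9.60 to 62.9 counts of the alpha-factor gene MF(ALPHA)1 and 12594 to 22609 of STE2, the receptor gene of a cells. A difference between the strains therefore cannot be told apart from a difference in mating type, in LYS2 or in scale, since the 2 tables were normalised separately.

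Replicate 3 stood apart for several of the genes. In galactose its HSP82 level was above the mean of replicates 1 and 2 by 1.25 on the log2 scale in the Dib1 strain and by 1.28 in the Snu114 strain, and its HSP42 level by 1.33 and 1.39. In the 8 h libraries of the Snu114 strain replicate 3 differed from the mean of the others by -1.25 for SSA2, -1.16 for SSA1 and -0.99 for HSP104. Over all genes above 10 CPM (counts per M gene reads) the median size of this deviation was 0.169 to 0.326 in the 6 groups. In the labels, the sample codes of replicates 1 and 2 differ by a letter and replicate 3 has a code of another form. What made replicate 3 differ was not tested. Results are given below from all libraries and, where the call changes, without replicate 3 of every group.

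On a scale per length (RPKM, reads per kilobase of gene and per M gene reads, computed here from the recovered reads), HSP12 had the highest mean of the 10 in each of the 6 groups. It ran from 1172 ± 330.3 (SD, n = 3) in the Dib1 strain at 4 h to 7891 ± 480.4 in the Snu114 strain in galactose. At 4 h its range overlapped with that of SSA2 in both strains. HSP78 and SSA4 were the pair with the lowest means in each group, with HSP78 at 100.1 ± 20.1 and SSA4 at 89 ± 8.48 in the Dib1 galactose libraries. The ranges of KAR2 and SSA4 overlapped in the Snu114 libraries at 8 h. In the Dib1 galactose libraries the order was HSP12, SSA1, HSP26, SSA2, HSP82, HSP104, HSP42, KAR2, HSP78 and SSA4. The ranges of neighbours from SSA2 to KAR2 overlapped there, as did those of HSP78 and SSA4. At 8 h in the Dib1 strain HSP26 stood at 2065 ± 419 and HSP42 at 1114 ± 93.5 RPKM, next after HSP12. They were ahead of SSA2 at 1017 ± 68.6 and SSA1 at 978 ± 92.2. The ranges of HSP12 and HSP26 overlapped there, as did those of HSP42 and SSA2 and of SSA2 and SSA1.

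Together the 10 genes took a larger part of the mRNA reads at 8 h. Their sum was 0.596 ± 0.111% of all gene reads (SD, n = 3) in Dib1 galactose libraries, 0.707 ± 0.055% at 4 h and 1.12 ± 0.07% at 8 h. The Snu114 libraries held 0.811 ± 0.096%, 0.698 ± 0.107% and 1.05 ± 0.19%. In the Dib1 strain the 3 libraries at 8 h, 1.07 to 1.20%, lay above all others. Replicate 3 of the Snu114 strain at 8 h, at 0.834%, lay within the galactose range of 0.702 to 0.877%. The libraries come from whole cultures, so a shift in all cells and a shift in some of them cannot be told apart.

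**Figure D1:**
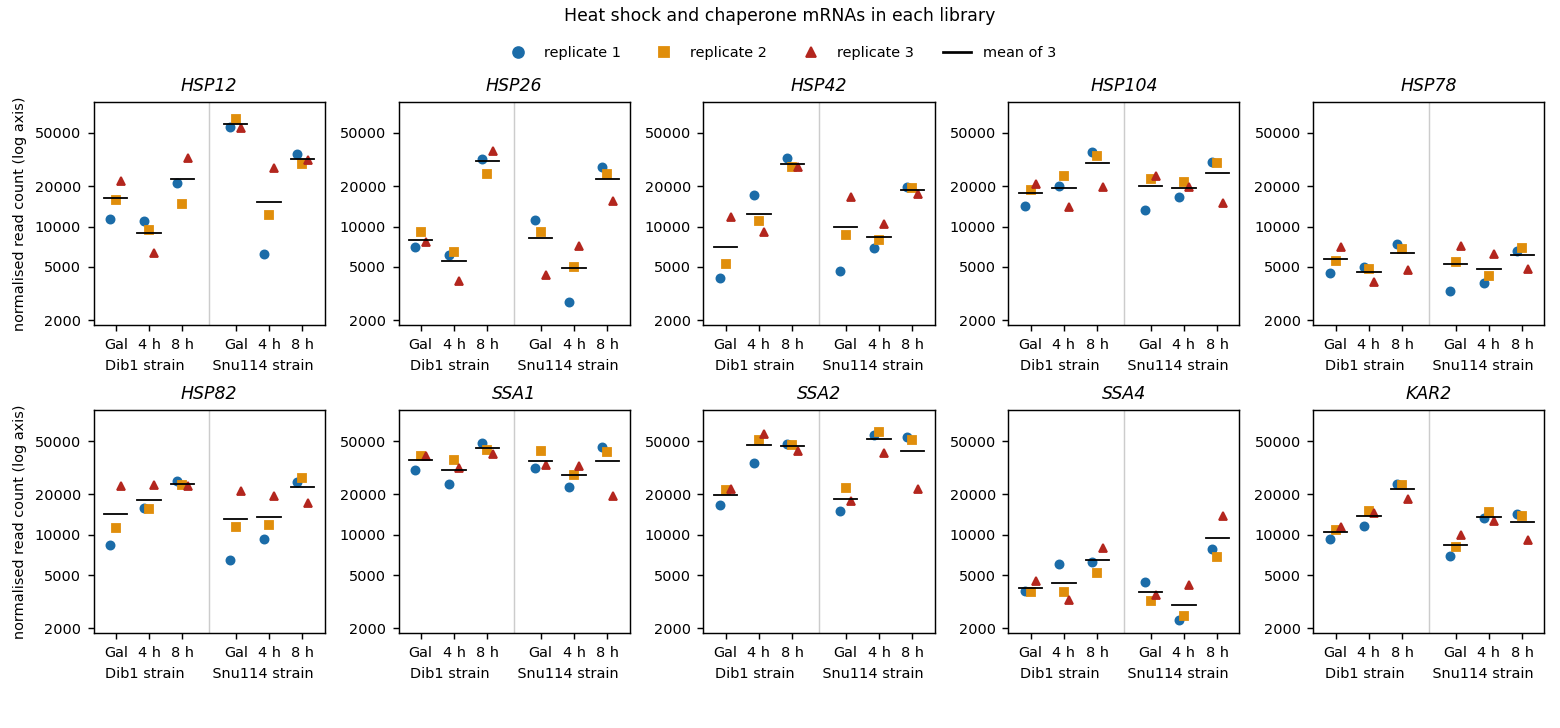
Normalised read count (log axis) of each of the 10 genes in every library, with 3 libraries for each strain and condition (Gal, 6 h in galactose; 4 h and 8 h, in glucose); points are libraries marked by replicate number and bars are means. HSP26 in the 3 libraries of each strain at 8 h sits above all others of its strain, and SSA2 at 4 h sits above galactose in both.

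Changes were tested with limma over all 6447 genes with reads in a strain, with Benjamini-Hochberg adjustment and a threshold of 0.05. At 4 h in the Dib1 strain 1 of the 10 genes passed, SSA2, which rose, where 5.17% of all genes rose and 15.2% changed. At 8 h against galactose 4 of the 10 rose in that strain, HSP26, HSP42, SSA2 and KAR2, against 13.7% of all genes. Between 4 h and 8 h 4 of the 10 rose, HSP12, HSP26, HSP42 and KAR2, against 8.62% of all genes. No member fell past the threshold in these 3 comparisons by limma (0 of 10 in each).

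At 4 h in the Snu114 strain 3 of the 10 passed: SSA2 and KAR2 rose, where 3.78% of all genes did, and HSP12 fell, where 7.68% did. At 8 h against galactose 1 of the 10, SSA4, rose, where 3.27% of all genes did. Between 4 h and 8 h 2 of the 10 rose, HSP26 and SSA4, where 1.24% of all genes did. Without replicate 3 of every group the Snu114 counts were 5 (2 higher, 3 lower), 6 and 5 of 10, while the share of all genes called was also higher, at 24.7%, 17.1% and 5.81% in place of 11.5%, 8.98% and 1.91%. The Dib1 counts were 1, 6 and 1, with 6.58%, 20.8% and 4.83% of all genes called. They were 0, 0 and 0 in the Snu114 strain without replicate 1 of every group, where 1.88%, 1.96% and 0.0623% of all genes were called, and again without replicate 2, where 1.74%, 1.23% and 0% were.

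The median log2 change of the 10 genes was 0.08 at 4 h and 0.80 at 8 h against galactose in the Dib1 strain, and 0.61 from 4 h to 8 h. The Snu114 medians were -0.09, 0.76 and 0.58. Over all genes tested, every one of these 6 medians lay between 0.00 and 0.01 in size. At 8 h against galactose all 10 estimates were above 0 in the Dib1 strain and 8 of 10 in the Snu114 strain. Groups of libraries did not overlap, with 8 h higher, for 7 of 10 genes in the Dib1 strain, beside 25.5% of all genes, and for 3 of 10 in the Snu114 strain, beside 13.2%.

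**Figure D2:**
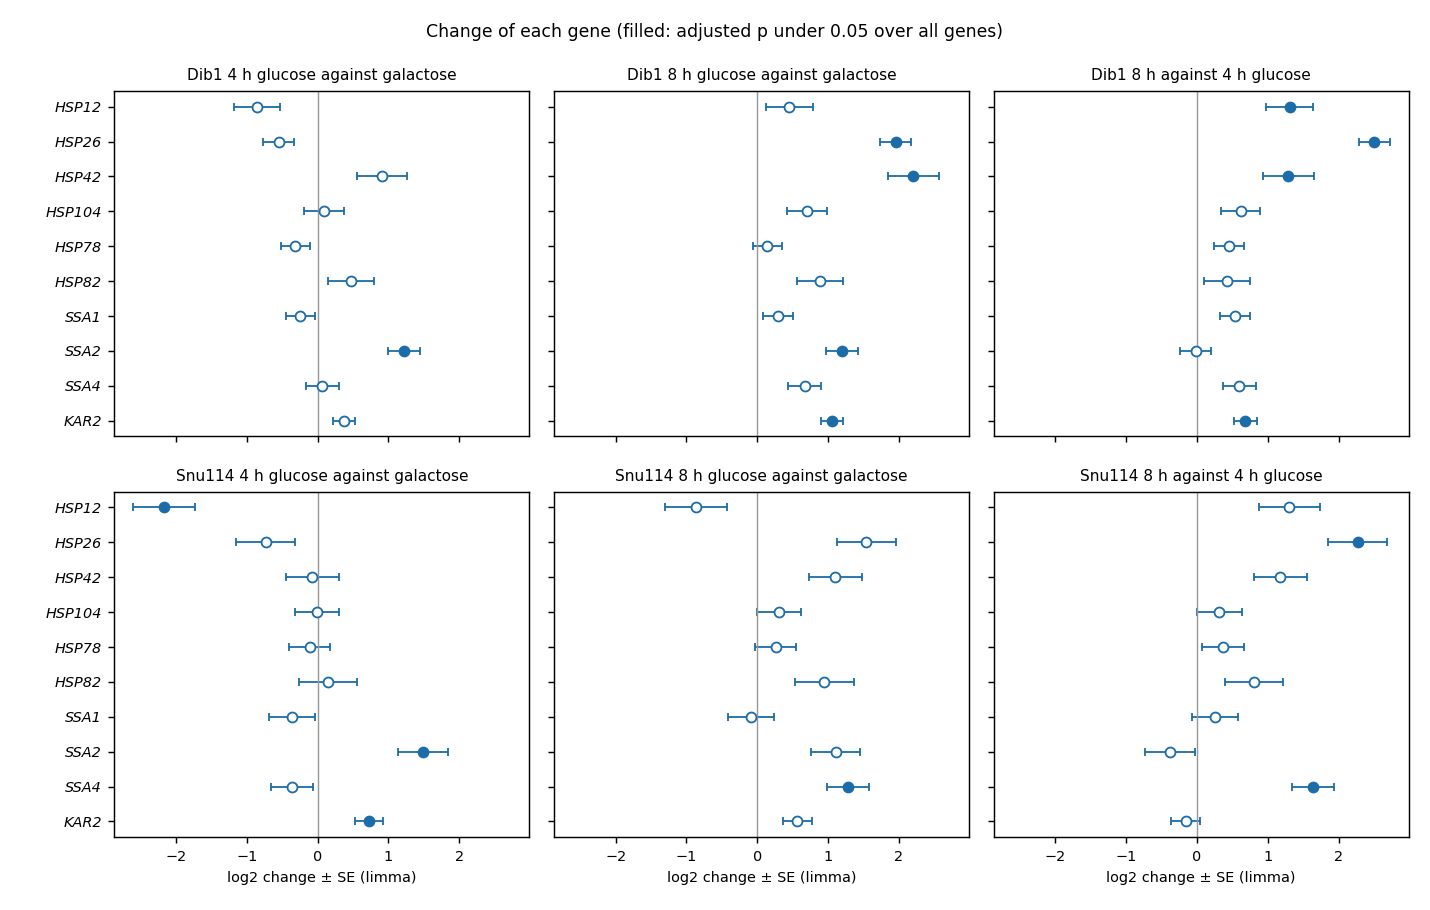
Log2 change ± SE (limma) of each of the 10 genes in the 3 comparisons of each strain; filled points passed an adjusted p of 0.05 over all genes. Estimates at 8 h lie mostly to the right of 0, led by HSP42 and HSP26 in the Dib1 strain at 2.20 and 1.96, while HSP12 at 4 h in the Snu114 strain lies at -2.17.

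HSP26 (YBR072W, chrII:382030-382674, plus strand, R64) encodes an oligomeric small heat shock protein that binds unfolding proteins, and it had the largest rise among the 10 genes between 4 h and 8 h in each strain. The Dib1 libraries gave 7013, 9121 and 7698 normalised counts with galactose, 6159.9, 6467 and 3955 by 4 h and 31742, 24508 and 36968 by 8 h (replicates 1, 2 and 3). The Snu114 libraries gave 11138, 9068 and 4379, 2718, 4996 and 7124 and 27916, 24812 and 15659.5. In both strains every library at 8 h was above every other library of that strain. Its log2 change from 4 h to 8 h was 2.50 ± 0.22 in the Dib1 strain (limma adjusted p = 0.000241) and 2.27 ± 0.42 in the Snu114 strain (limma adjusted p = 0.028), and it was above 0 within each replicate number, 3 of 3 in each strain. Against galactose HSP26 rose by 1.96 ± 0.22 at 8 h in the Dib1 strain (limma adjusted p = 0.000178), and the Snu114 estimate of 1.54 ± 0.42 lay just beyond the threshold (limma adjusted p = 0.0503). In the authors' deposited table that Snu114 change is 1.48 with an adjusted p of 0.00297. At 4 h the estimates were -0.55 ± 0.22 and -0.73 ± 0.42 (limma adjusted p = 0.119 and 0.303). Without replicate 3 of every group the Snu114 change of HSP26 was -1.45 at 4 h (limma adjusted p = 0.012), past the threshold, and 1.39 at 8 h (adjusted p = 0.0175). The Snu114 rise from 4 h was past the threshold or not by 1 library: without replicate 2 in galactose, or replicates 1 or 2 at 4 h or 8 h, its limma adjusted p was 0.0506, 0.106, 0.101, 0.0849 and 0.112, with the change between 1.89 and 2.33.

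HSP42 (YDR171W, chrIV:806621-807748, plus strand), for the other cytosolic small heat shock protein, which gathers misfolded proteins into deposits, had the largest change of the 10 at 8 h in the Dib1 strain. There it gave 4136, 5286 and 11757 normalised counts with galactose, 17170.5, 10936 and 9099.8 by 4 h and 32325, 27683 and 27969 by 8 h. The galactose library of replicate 3 lay above the 4 h library of the same number and of replicate 2, and all 8 h libraries lay above the rest. The change at 8 h was 2.20 ± 0.36 (limma adjusted p = 0.00155) and, without replicate 3 of every group, 2.68 (limma adjusted p = 0.00265). HSP42 rose from 4 h to 8 h by 1.29 ± 0.36 (limma adjusted p = 0.0404), a call lost when any of 6 libraries was left out (replicate 2 in galactose, replicates 2 and 3 at 4 h, each replicate at 8 h), with adjusted p from 0.0598 to 0.133. It was 1.13 without replicate 3 of every group (limma adjusted p = 0.0735). At 4 h the estimate was 0.91 ± 0.36 (limma adjusted p = 0.115), and it was 1.55 without replicate 3 (limma adjusted p = 0.0286). Leaving out the galactose replicate 3 alone gave 1.35 (adjusted p = 0.0149).

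HSP42 of the Snu114 strain gave 4686, 8607 and 16655 normalised counts with galactose, 6943, 7898 and 10467 by 4 h and 19675, 19449.5 and 17444 by 8 h. The 8 h libraries were the highest, and replicate 3 in galactose came close to them. The change at 8 h was 1.10 ± 0.38 (limma adjusted p = 0.108). It was 1.62 without replicate 3 of every group (limma adjusted p = 0.00958) and 1.57 without the galactose replicate 3 alone (adjusted p = 0.0138). The step from 4 h to 8 h was 1.18 ± 0.38 by limma (adjusted p = 0.17), 1.40 without replicate 3 of every group (limma adjusted p = 0.0296), and 1.16 with an adjusted p of 0.0332 in the authors' deposited table.

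The stretches upstream of these 2 genes are shown because they were the members with the largest changes at 8 h in the Dib1 strain. Motifs were searched on both strands, overlapping matches included, in the 500 bases from 600 to 101 before each start codon, in RefSeq's R64 genome (the assembly of sacCer3). The letters searched were GAANNTTCNNGAA for an HSE, AGGGG for a STRE and CAGNGTG for the UPRE core. Of 5999 such windows 1.58% hold this HSE, 35.2% the STRE and 10.6% the UPRE core. Capitals mark the matches, and a match is only a match of letters. The HSP26 stretch (chrII:381541-381718, plus strand) has 3 STRE matches in capitals. In the HSP42 stretch (chrIV:806368-806453, plus strand) the first run of capitals holds 2 overlapping HSE matches and the other 3 are STRE matches.
HSP26 upstream: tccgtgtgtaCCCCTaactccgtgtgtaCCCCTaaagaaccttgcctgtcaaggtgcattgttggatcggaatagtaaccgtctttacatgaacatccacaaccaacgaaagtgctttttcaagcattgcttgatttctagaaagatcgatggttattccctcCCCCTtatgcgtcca
HSP42 upstream: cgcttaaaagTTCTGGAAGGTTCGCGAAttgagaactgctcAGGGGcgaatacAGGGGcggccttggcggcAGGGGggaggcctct

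HSP12 (YFL014W, chrVI:107256-107585, plus strand) encodes a small protein that stabilises membranes under stress and is a widely used reporter of Msn2 and Msn4. It was lowest at 4 h in both strains. The Snu114 libraries gave 55342, 63901 and 54350.4 normalised counts with galactose, 6241, 12233 and 27607 by 4 h and 34575, 29511 and 31225 by 8 h. All 3 galactose libraries lay above the 8 h libraries, which lay above the 4 h libraries. It fell at 4 h, with a log2 change of -2.17 ± 0.43 (limma adjusted p = 0.0128). The change was below 0 in each of the 3 replicate numbers (-3.15, -2.38 and -0.98). Its adjusted p was 0.0525 without replicate 2 in galactose and 0.0516 without replicate 2 at 4 h. At 8 h HSP12 was at -0.86 ± 0.43 against galactose (limma adjusted p = 0.276) and at 1.31 ± 0.43 against 4 h (adjusted p = 0.186). The latter was 1.86 without replicate 3 at 4 h alone (adjusted p = 0.0205) and 1.87 without replicate 3 of every group (limma adjusted p = 0.0208).

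HSP12 of the Dib1 strain gave 11484, 15709.7 and 21985 counts with galactose, 11044, 9491 and 6394 by 4 h and 21084, 14827 and 32541 by 8 h. The 4 h libraries did not overlap with the others, and the galactose and 8 h libraries overlapped. The change at 4 h was -0.85 ± 0.33 by limma (adjusted p = 0.109). It is -0.87 in the authors' deposited table, with an adjusted p of 0.0406. It rose by 1.31 ± 0.33 from 4 h to 8 h (limma adjusted p = 0.0279), and leaving out replicate 3 at 4 h, replicate 1 at 8 h or replicate 3 at 8 h gave adjusted p of 0.0829, 0.0879 and 0.0799. Without replicate 3 of every group this rise was 0.79 (limma adjusted p = 0.125).

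The window upstream of HSP12 holds 5 STRE matches, more than that of any other of the 10 genes, and no match to this HSE. It also covers part of a neighbouring annotated gene, over 61.6% of its length. The stretch shown (chrVI:106811-107080, plus strand) carries the 5 STRE matches in capitals, 3 in one orientation and then 2 in the other.
HSP12 upstream: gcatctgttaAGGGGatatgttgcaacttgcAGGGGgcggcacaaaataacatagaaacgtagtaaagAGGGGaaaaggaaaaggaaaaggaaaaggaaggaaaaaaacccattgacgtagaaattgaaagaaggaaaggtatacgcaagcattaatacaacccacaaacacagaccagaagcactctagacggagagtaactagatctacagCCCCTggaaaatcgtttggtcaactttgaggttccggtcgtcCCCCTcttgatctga

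HSP104 (YLL026W, chrXII:88623-91349, plus strand) encodes the cytosolic disaggregase, and HSP78 (YDR258C, chrIV:971808-974243, minus strand) its mitochondrial relative. Neither passed the threshold in any of the 6 comparisons by limma. HSP104 of the Dib1 strain gave 14303, 18712 and 20713 normalised counts with galactose, 20086, 23804 and 13964 by 4 h and 36232, 33844 and 19644 by 8 h. The Snu114 libraries, in the same order, gave 13311, 22587 and 23897, 16512, 21587 and 19874 and 30481, 29635 and 15101. At 8 h replicates 1 and 2 were the highest libraries of each strain, and replicate 3 lay within the range of galactose. The 8 h change was 0.71 ± 0.28 in the Dib1 strain (limma adjusted p = 0.0889), 0.98 without replicate 3 at 8 h (adjusted p = 0.0241) and 1.10 without replicate 3 of every group (adjusted p = 0.0187). It was 0.31 ± 0.32 in the Snu114 strain (limma adjusted p = 0.632). The authors' deposited table gives 0.74 for the Dib1 strain, with an adjusted p of 0.0252.

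HSP78 ranged from 3867 to 7412 counts over the 9 Dib1 libraries and from 3284 to 7146 over the 9 Snu114 libraries. Its groups overlapped in each comparison. The largest of its 6 changes was 0.46 ± 0.21 (limma adjusted p = 0.175), from 4 h to 8 h in the Dib1 strain. The upstream windows of both disaggregase genes hold 2 HSE and 3 STRE matches, as many STRE matches as that of HSP42 and the same number of HSE matches. Of the HSP104 window 26.6% lies in another annotated gene, of the HSP78 window 42.6% and of the HSP42 window 0%.

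HSP82 (YPL240C, chrXVI:96496-98625, minus strand) encodes the Hsp90 copy that is raised by stress, beside the steadily expressed HSC82. The Dib1 libraries gave 8395, 11192 and 22996 normalised counts with galactose, 15804, 15500.3 and 23336 by 4 h and 25101, 23391 and 23214 by 8 h. The Snu114 libraries gave 6519, 11499 and 21046, 9237, 11877 and 19450.1 and 24859, 26320.0 and 17299. Replicates 1 and 2 were lowest in galactose and highest at 8 h in both strains, while replicate 3 hardly differed between the 3 Dib1 conditions. At 8 h the log2 change was 0.89 ± 0.33 in the Dib1 strain and 0.95 ± 0.41 in the Snu114 strain (limma adjusted p = 0.0683 and 0.201). Without replicate 3 of every group it was 1.32 and 1.56 (limma adjusted p = 0.00734 and 0.0115), and the Snu114 step from 4 h to 8 h was 1.29 (adjusted p = 0.0403). Leaving out only the galactose replicate 3 gave 1.30 in the Dib1 strain at 8 h (adjusted p = 0.00376) and 0.88 at 4 h (adjusted p = 0.04), where the estimate from all libraries was 0.47 ± 0.33 (adjusted p = 0.35).

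HSC82, which shares 92.4% of its coding bases with HSP82, had a mean of 44178 normalised counts in Dib1 galactose libraries, 77960 at 4 h and 67209 at 8 h. It rose at 4 h in the Dib1 strain by 0.81 ± 0.23 (limma adjusted p = 0.0416). The Snu114 means of HSC82 were 38358, 70658 and 61081 in the same order, and it did not pass the threshold at 4 h there. No 151-base stretch of the HSP82 coding sequence, the length of a read, recurs elsewhere in the genome.

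**Figure D3:**
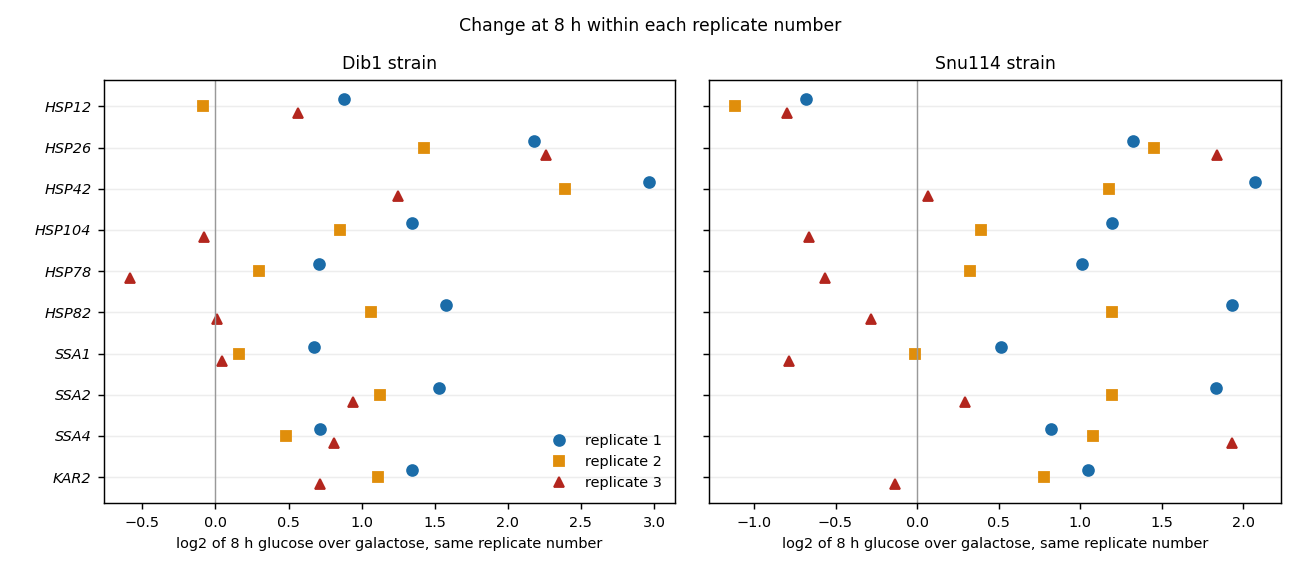
Log2 ratio of the 8 h to the galactose library with the same replicate number for each of the 10 genes, in the Dib1 strain (left) and the Snu114 strain (right). Replicate 3 (triangles) lies lowest in both strains for 7 of the 10 genes (HSP42, HSP82, HSP104, HSP78, SSA1, SSA2 and KAR2), and highest for HSP26 and SSA4; for HSP82 it stands at 0.01 in the Dib1 strain and -0.28 in the Snu114 strain.

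The cytosolic Hsp70 genes differed among themselves. SSA1 (YAL005C, chrI:139503-141431, minus strand) and SSA2 (YLL024C, chrXII:95566-97485, minus strand) encode nearly identical chaperones present in unstressed cells, and SSA4 (YER103W, chrV:364589-366517, plus strand) a copy raised by heat. SSA2 rose at 4 h in both strains. In the Dib1 strain it gave 16597, 21549 and 21779 normalised counts with galactose, 34166, 50971 and 56276 by 4 h and 47907, 46938 and 41870.5 by 8 h. The Snu114 libraries, in the same order, gave 15165, 22149.6 and 17871, 55220.5, 58747 and 40818 and 54001, 50774 and 21944. Every glucose library of the Dib1 strain was above every galactose library, and in the Snu114 strain replicate 3 at 8 h alone fell within the galactose range. The log2 change at 4 h was 1.22 ± 0.22 in the Dib1 strain (limma adjusted p = 0.00618) and 1.49 ± 0.35 in the Snu114 strain (limma adjusted p = 0.0255), above 0 in 3 of 3 replicate numbers in each. At 8 h it was 1.20 ± 0.22 in the Dib1 strain (limma adjusted p = 0.00323), and from 4 h to 8 h -0.02 ± 0.22 (adjusted p = 0.969).

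The Snu114 change of SSA2 at 8 h, 1.11 ± 0.35, did not pass (limma adjusted p = 0.0876), and was 1.53 without replicate 3 at 8 h (adjusted p = 0.00458) and 1.51 without replicate 3 of every group (adjusted p = 0.00564). The authors' deposited table gives 1.20 with an adjusted p of 0.00234 there. The Snu114 rise at 4 h was lost when any of 5 libraries was left out, each replicate in galactose and replicates 1 and 2 at 4 h, with limma adjusted p from 0.0575 to 0.0963 and the change between 1.36 and 1.63. The Dib1 rise at 4 h was 1.14 without replicate 3 of every group (adjusted p = 0.0722).

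SSA1 did not pass the threshold in any of the 6 comparisons by limma. It gave 30545, 38629.6 and 38934 normalised counts with galactose, 24046, 36217 and 31707 by 4 h and 48737, 43241 and 40108 by 8 h in the Dib1 strain, where the 8 h libraries lay above the others. The Snu114 libraries gave 31421, 41826 and 33379.9, 22815, 28021 and 32681 and 44898, 41409.5 and 19353, and all 3 groups overlapped. Its changes at 4 h were -0.24 ± 0.21 and -0.36 ± 0.33 in the Dib1 and Snu114 strains (limma adjusted p = 0.448 and 0.538). The change between 4 h and 8 h in the Dib1 strain was 0.54 ± 0.21 (limma adjusted p = 0.118).

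The balance of SSA2 and SSA1 reads differed between the galactose and glucose libraries, and between 4 h and 8 h in glucose. SSA2 was 0.554 ± 0.009 times SSA1 (SD, n = 3) in Dib1 galactose libraries, 1.53 ± 0.21 times at 4 h and 1.04 ± 0.05 times at 8 h. The Snu114 ratios were 0.516 ± 0.029, 1.92 ± 0.60 and 1.19 ± 0.05. In both strains the galactose libraries, at 0.483 to 0.559, lay below all glucose libraries, at 0.983 to 2.42, and the lowest 4 h library of each strain lay above its highest 8 h library. An exact two-sided permutation test of 3 libraries against 3 cannot give a p under 0.1, so the ratio is given as values. The 2 coding sequences are 96.8% identical (1859 of 1920 aligned bases), and 35.4% of the 151-base stretches of SSA1 and 35.5% of those of SSA2 recur elsewhere in the genome, so the counts of each are uncertain to the extent that shared reads were dropped or misplaced.

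**Figure D4:**
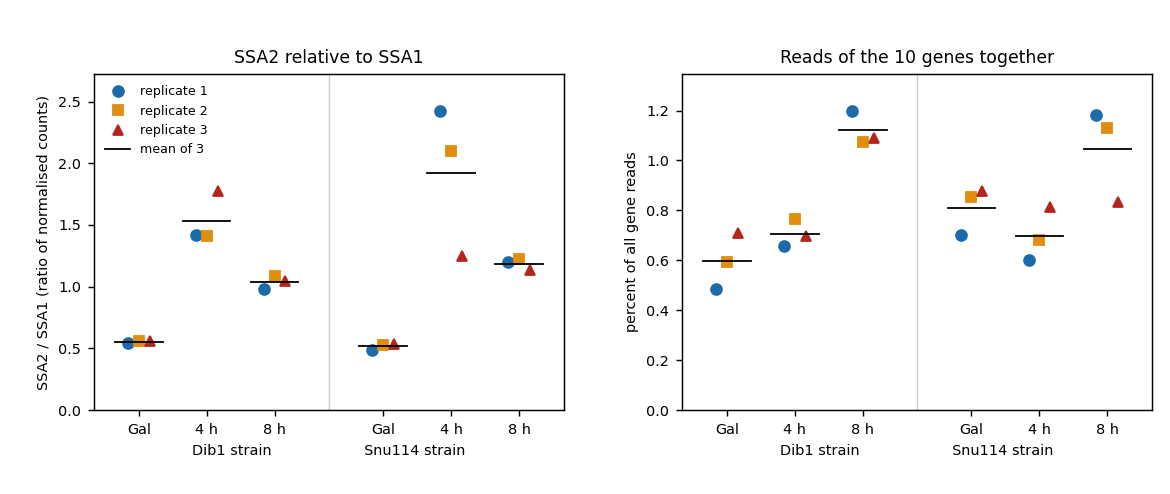
Left, the ratio of SSA2 to SSA1 normalised counts in each library; right, reads of the 10 genes as a percent of all gene reads (both axes start at 0; bars are means of 3 libraries). The ratio lies between 0.483 and 0.559 in galactose and at or above 0.983 in every glucose library.

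The upstream stretches of SSA1 and SSA2 are shown since the 2 genes are near copies in their coding parts, and SSA2 rose at 4 h while SSA1 did not pass. That of SSA1 (chrI:141577-141805, minus strand, written 5′ to 3′ along the gene) has 2 overlapping HSE matches, 1 more HSE match and 2 STRE matches. The SSA2 window holds 1 HSE match and no STRE match (chrXII:97696-97728, minus strand, written along the gene). Of that window 17.8% lies in another annotated gene.
SSA1 upstream: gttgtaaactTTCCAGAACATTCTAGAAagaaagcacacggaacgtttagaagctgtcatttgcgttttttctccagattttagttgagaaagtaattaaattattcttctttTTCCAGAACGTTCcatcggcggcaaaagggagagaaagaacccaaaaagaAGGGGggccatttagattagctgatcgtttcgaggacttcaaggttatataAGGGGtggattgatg
SSA2 upstream: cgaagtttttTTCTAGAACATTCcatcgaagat

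SSA4, the heat-raised copy, was the member that rose at 8 h against galactose in the Snu114 strain. There it gave 4424, 3208 and 3583 normalised counts with galactose, 2299, 2492 and 4215 by 4 h and 7822, 6791 and 13697 by 8 h. The 8 h libraries were higher than all others, with replicate 3 the highest. SSA4 rose by 1.28 ± 0.29 against galactose (limma adjusted p = 0.0247) and by 1.64 ± 0.29 against 4 h (limma adjusted p = 0.0273), and both held without replicate 3 of every group, at 0.95 and 1.61 (limma adjusted p = 0.0118 and 0.00667). The first call was lost without replicate 2 or 3 in galactose or replicate 1 at 8 h, with adjusted p of 0.0966, 0.0777 and 0.055. The second was lost without replicate 1 or 2 at 4 h or at 8 h, with adjusted p from 0.0524 to 0.115. At 4 h the SSA4 change without replicate 3 of every group was -0.65 (limma adjusted p = 0.0276).

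SSA4 of the Dib1 strain gave 3798, 3731 and 4518 normalised counts with galactose, 6067, 3766 and 3235 by 4 h and 6228, 5205 and 7925 by 8 h. The 8 h libraries lay above galactose and overlapped with 4 h. The change at 8 h was 0.67 ± 0.23 (limma adjusted p = 0.0564), and the authors' deposited table gives 0.68 with an adjusted p of 0.0239. Leaving out replicate 1 at 4 h gave 0.67 with an adjusted p of 0.00889 at 8 h against galactose, and 0.87 with 0.00989 against 4 h.

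KAR2 (YJL034W, chrX:381327-383375, plus strand) encodes BiP, the main Hsp70 of the endoplasmic reticulum, which helps import and fold secreted proteins. The Dib1 libraries gave 9354, 10899.6 and 11370.0 normalised counts with galactose, 11569, 15089.7 and 14477 by 4 h and 23801, 23576 and 18640.4 by 8 h. The 3 groups did not overlap, with each later group higher. It rose by 1.06 ± 0.16 at 8 h against galactose (limma adjusted p = 0.00101) and by 0.68 ± 0.16 from 4 h (limma adjusted p = 0.0206), and the 4 h change was 0.38 ± 0.16 (adjusted p = 0.14). The 4 h change was 0.49 without replicate 1 at 4 h (limma adjusted p = 0.0459), and the rise from 4 h to 8 h had an adjusted p of 0.1 and 0.0953 without replicates 1 and 2 at 8 h. Without replicate 3 of every group that rise was 0.84 (adjusted p = 0.0666).

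KAR2 of the Snu114 strain gave 6902, 8109 and 10010.3 normalised counts with galactose, 13454, 14776 and 12723 by 4 h and 14306, 13888 and 9118 by 8 h. The 4 h libraries were above galactose, and the 8 h libraries overlapped with both. It rose at 4 h by 0.72 ± 0.20 (limma adjusted p = 0.0486), close to the threshold: the adjusted p was 0.0521 with TMM scaling, 0.0578 by edgeR and 0.0684 with the trend of gene length removed. It was 0.0596 to 0.163 when any of 7 libraries was left out (replicates 1 and 2 in galactose, each replicate at 4 h, replicates 1 and 2 at 8 h). At 8 h the change was 0.56 ± 0.20 (limma adjusted p = 0.127), 0.77 without replicate 3 at 8 h (adjusted p = 0.0189) and 0.91 without replicate 3 of every group (adjusted p = 0.00435). The change from 4 h was -0.16 ± 0.20 (adjusted p = 0.783).

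The KAR2 stretch shown (chrX:381112-381183, plus strand) holds 2 overlapping HSE matches, as 1 run of capitals, followed by a match to the UPRE core. KAR2 and HSP78 are the 2 members with a UPRE core match, and 55% of the KAR2 window lies in another annotated gene.
KAR2 upstream: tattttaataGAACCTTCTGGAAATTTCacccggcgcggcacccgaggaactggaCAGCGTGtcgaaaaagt

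Over the 10 genes, 6 windows hold this HSE, 8 hold a STRE and 2 the UPRE core. The 4 without this HSE are HSP12, HSP26, HSP82 and SSA4, and the 2 without a STRE are SSA2 and KAR2. Of the 5 genes that rose in at least 1 comparison against galactose, HSP26 and SSA4 have STRE matches alone, SSA2 an HSE match alone, HSP42 both and KAR2 an HSE and a UPRE core match.

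The strains' changes were compared directly in a fit of all 18 libraries over 6476 genes, as the Snu114 change minus the Dib1 change. None of the 10 passed by limma in any of the 3 comparisons (0 of 10 in each), where 0.494% of all genes did at 4 h, 6.44% at 8 h and 0.618% from 4 h to 8 h. At an unadjusted limma p under 0.05 there were 1, 1 and 2 of 10. The share of all genes at that unadjusted threshold was not computed, so these counts have no background to be read against. edgeR also called 0 of 10 in each, and DESeq2 0, 0 and 1. The estimates for HSP12 were -1.31 ± 0.58 at 4 h and -1.32 ± 0.58 at 8 h (limma adjusted p = 0.42 and 0.223). KAR2 differed from 4 h to 8 h by -0.84 ± 0.26 (limma adjusted p = 0.143; 0.043 by DESeq2) and SSA4 by 1.04 ± 0.40 (limma adjusted p = 0.26). For HSP26 the difference was -0.42 ± 0.51 at 8 h and for SSA2 -0.09 ± 0.43, with standard errors too wide to say that the strains respond alike.

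Other genes of the chaperone system, in 9 lists, were tested in the same fits. At 8 h against galactose in the Dib1 strain, 9 of 15 genes of folding in the endoplasmic reticulum rose and none fell, with a median of 0.41. SCJ1, for a partner of Kar2, was at 0.91 ± 0.10 (limma adjusted p = 0.000157) and MPD1, for a disulfide isomerase, at 0.84 ± 0.17. Of 14 genes of the CCT chaperonin and prefoldin, which fold actin and tubulin, 8 rose and 1 fell (median 0.47), with CCT2 at 0.65 ± 0.11 and CCT8 at 0.62 ± 0.13. The 1 that fell was GIM5, a prefoldin subunit whose gene has an intron, at -0.82 ± 0.10 (limma adjusted p = 0.000276). GIM5 was also at -0.51 ± 0.12 in the Snu114 strain at 8 h (limma adjusted p = 0.0247).

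Of 7 regulator genes 5 rose in the Dib1 strain at 8 h (median 0.60). RIM15, for a kinase upstream of Msn2 and Msn4, was at 1.62 ± 0.15 and HAC1, whose mRNA is spliced by Ire1 and not by the spliceosome, at 1.34 ± 0.33 (limma adjusted p = 6.82e-05 and 0.0129). HSF1 was at 0.50 ± 0.14 at 4 h and 1.15 ± 0.14 at 8 h (limma adjusted p = 0.0428 and 0.0003), a gene named here because its product acts on most of the 10. Of 10 other general stress genes 6 rose and 2 fell (median 0.80): TSL1, of trehalose synthesis, was at 2.06 ± 0.20 and the catalase gene CTT1 at 1.61 ± 0.36, while PGM2 and GPH1, of glucose phosphate and glycogen metabolism, were at -1.30 ± 0.21 and -0.92 ± 0.24.

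In the same comparison, of 11 genes of Hsp90 and its co-chaperones 3 rose (median 0.35), SBA1 by 0.82 ± 0.15 and HCH1 by 0.60 ± 0.19 among them. Of 12 Hsp70, Hsp110 and Hsp40 partner genes 2 rose (median 0.08), FES1, for a nucleotide exchange factor, and the Hsp40 gene SIS1, by 0.77 ± 0.20 and 0.59 ± 0.17. Of 12 mitochondrial genes 1 rose, the protease gene PIM1, by 0.76 ± 0.11, 1 of 8 ribosome-associated chaperone genes, ZUO1, by 0.42 ± 0.13, and 1 of 8 sequestrase and other heat shock genes, HSP31, by 0.81 ± 0.15. None of these 5 lists had a gene that fell. The background of this comparison was 13.7% of all genes higher and 15.1% lower, with a median over all genes of 0.01.

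At 4 h in the Dib1 strain 5 of the 14 CCT and prefoldin genes rose and 1 fell, 3 of 15 genes of the endoplasmic reticulum rose, and 2 of 11 of the Hsp90 list rose, HSC82 and STI1. Over all genes 333 of 6447 rose and 646 fell there. Of the 10 general stress genes 3 fell, DDR2 at -2.16 ± 0.28, PGM2 at -1.76 ± 0.21 and GPH1, and TSL1 rose. YDJ1, ZUO1 and HSF1 rose on their lists, HSP31 and HSP32 fell (HSP32 from a mean of 12.4 to 2.5 normalised counts, a few reads), and no mitochondrial gene of the 12 passed. At 4 h in the Snu114 strain 4 of the 10 general stress genes fell, led by DDR2 at -2.95 ± 0.37 (limma adjusted p = 0.00112) and PGM2 at -1.40 ± 0.39, where 3.78% of all genes rose and 7.68% fell. Of 8 genes of the sequestrase list 3 fell there, HSP33, SNO4 and HSP31. The mean levels of HSP33 and SNO4 were 22.6 and 9.5 normalised counts with galactose and 3.2 and 1.2 by 4 h, a few reads, while HSP31 went from 3477 to 1707. MGE1 and PIM1 of the mitochondrial list, LHS1 and SCJ1 of the endoplasmic reticulum and ZUO1 rose. RPN4, for the activator of proteasome genes, fell. The Hsp90, CCT and prefoldin, and cytosolic Hsp70 partner lists had no gene past the threshold there by limma. HSP32, HSP33 and SNO4 are near copies, so their counts are uncertain.

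At 8 h in the Snu114 strain, where 3.27% of all genes rose and 5.71% fell, 7 of the 97 list genes rose and 3 fell. On the Hsp90 list 2 of 11 genes rose, SBA1 at 0.59 ± 0.15 and CPR7 at 0.50 ± 0.12, 2 of 14 on the CCT and prefoldin list, CCT3 and CCT2, and 1 each on the lists of the endoplasmic reticulum (SCJ1), mitochondria (PIM1) and regulators (RIM15, 0.77 ± 0.14). DDR2, GIM5 and BTT1 fell. From 4 h to 8 h GIM5 was the 1 gene of the 9 lists to pass in the Snu114 strain, at -0.56 ± 0.12, where 0.667% of all genes fell. In the Dib1 strain 7 of 10 general stress genes rose in that step, with DDR2 at 1.95 ± 0.28 and HOR7 at 1.75 ± 0.23, and so did 4 of 7 regulators and 3 of 15 genes of the endoplasmic reticulum, where 8.62% of all genes rose and 5.79% fell. SGT1, HSP31 and PIM1 also rose, and MGE1 and GIM5 fell. The difference between the strains at 8 h passed the threshold for 7 of the 97 genes of these lists, 7.22%, close to the 6.44% of all genes. It was -2.26 ± 0.53 for CTT1, -2.10 ± 0.51 for DDR2, -1.66 ± 0.32 for HOR7, -1.04 ± 0.24 for HSP31, -0.88 ± 0.20 for HSF1 and -0.85 ± 0.20 for RIM15, all with the lower change in the Snu114 strain, and 0.44 ± 0.12 for MGE1, a mitochondrial nucleotide exchange factor. The limma adjusted p ran from 0.00705 to 0.0468.

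For each of the 10 genes, the 3 genes with the most similar pattern were found among 5240 with a mean of at least 10 CPM, by the root mean square difference in log2 value over the 18 libraries after centring within each strain. The libraries share their depth, strain and replicate deviations, so this is a description. None of the nearest genes was one of the 10. HSP82 was nearest to CUR1, for a sorting factor of misfolded proteins, with a difference of 0.185 where HSP82 itself varied by 0.593. KAR2 was nearest to RPN2, of the proteasome (0.175; KAR2 itself 0.424), and SSA2 to HSC82 (0.312; SSA2 itself 0.678). HSP12 was nearest to IRC15 (0.326), HSP26 to YNL194C (0.390), HSP42 to YIR014W (0.324) and SSA4 to ICS2 (0.240). HSP104 was nearest to the stress kinase gene YAK1 (0.215), SSA1 to YET1 (0.152) and HSP78 to IKS1 (0.193).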

How the data were processed

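Per the labels' protocols, poly(A) RNA was made into stranded libraries and sequenced as read pairs of 151 bases. Per the submitters' processing notes, Trimmomatic, STAR, HTSeq, DESeq2 and sacCer3 were used, with versions and counting settings not given in the sources used here. The deposited gene tables hold a normalised signal per library, the read count divided by a size factor, and the authors' log2 fold changes and adjusted p-values. All values (100%) were whole multiples of a step per library within a tolerance of 0.001, so reads were recovered from the deposited signal. The plan named edgeR for counts and limma-trend for normalised values, and the latter was followed.

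limma 3.58.1 in R 4.3.3 was fitted to log2(value + 1), with 9 libraries of each strain in a fit and all 18 for strain differences. Genes without reads in a strain were left out. Benjamini-Hochberg adjustment ran over all genes, with calls at 0.05. edgeR 4.0.16 and DESeq2 1.42.0 on recovered reads, other scalings, a pseudocount of 5, a minimum of 10 CPM, the replicate block and libraries left out were alternatives. The limma fit of each strain was tested at its 4 h comparison on simulated reads without shared replicate deviations. The strain differences, edgeR and DESeq2 were not tested in this way. The 10 genes and the 9 lists were chosen with earlier results of these data known. From each list, up to 2 genes each way with the largest called change were named; HSP31, HSF1 and GPH1 at some comparisons, HOR7, BTT1 and the other strain differences were added after their values were seen. Upstream windows came from the R64 annotation, in which 5914 of 6596 gene rows were found. Intron tables were not used.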

Additional observations from a re-analysis of the deposited data

How the results depend on the processing

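No change of the 10 genes reversed its sign past the threshold under any alternative. A pseudocount of 5, a minimum of 10 CPM, TMM scaling, edgeR and the removed length trend left each of the 9 counts of called genes within 1.5 times its value. With DESeq2 the count was 2 in place of 1 at 4 h in the Dib1 strain, 4 in place of 1 at 8 h against galactose in the Snu114 strain and 1 in place of 0 for the strain difference from 4 h to 8 h. DESeq2 also called more of all genes in these comparisons, 23.1% in place of 15.2%, 15.4% in place of 8.98% and 4.05% in place of 0.618%. Total scaling gave 3 in place of 1 at 8 h in the Snu114 strain, where it called 8.19% of all genes in place of 8.98%.

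Leaving out 1 library at a time gave 1 to 3 called Dib1 genes at 4 h, 4 to 5 at 8 h and 1 to 5 between them. For the Snu114 strain it gave 0 to 3, 0 to 4 and 0 to 3, and each of the strain differences gave 0. The number of all genes called moved too, over 423 to 1407, 1221 to 2557 and 347 to 1321 in the Dib1 strain. In the Snu114 strain it ran over 326 to 1196, 307 to 746 and 6 to 159. In the strain differences at 4 h and 8 h it ran over 11 to 42 and 201 to 546. Leaving out a replicate number of every group was chosen after seeing the data. Without replicate 1, 1 gene was called from 4 h to 8 h in the Dib1 strain, where 6.99% of all genes were, in place of 14.4%. In each Snu114 comparison 0 were called, beside 1.88%, 1.96% and 0.0623% of all genes. Without replicate 2, 0 were called at 4 h and 1 from 4 h to 8 h in the Dib1 strain, beside 3.61% and 1.17% of all genes. In each Snu114 comparison 0 were again called, beside 1.74%, 1.23% and 0% of all genes. Without replicate 3, the count between 4 h and 8 h was 1 for the Dib1 strain, beside 4.83% of all genes. The Snu114 counts were 5, 6 and 5, with the share of all genes called at 24.7%, 17.1% and 5.81% in place of 11.5%, 8.98% and 1.91%. These fits have fewer libraries; beyond that the cause was not tested.

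Same-numbered libraries of a strain deviated together, at a correlation over 0.1, in 15 of 18 pairs of libraries (lowest -0.159, median 0.413). Pairs with other numbers had a median of -0.256, with 8 of 36 over 0.1. Deviations within a group sum to 0, so these medians are not independent. The main fits did not treat the numbers as pairs. With replicate number as a block, 2 genes were called at 8 h in the Snu114 strain in place of 1, as SSA2 passed (adjusted p = 0.0318). The block also called more of all genes there, 17.2% in place of 8.98%. HSP82 at 8 h in the Dib1 strain passed (0.0345) and HSP42 from 4 h to 8 h did not (0.0535). In these comparisons 35.7% and 21.1% of all genes were called, in place of 28.9% and 14.4%. With the block, no other call of the 10 genes changed. With 3 libraries a group, a change that misses the threshold is not shown to be absent.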
